A study of Homo sapiens with 18 samples.

Results

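KO1 is an MDA-MB-231 line in which GPS2 was targeted with the first of the study's 2 sgRNA sets, and it was compared here with the parental MDA-MB-231 cells (WT). The 3 KO1 libraries and the 3 WT libraries were taken by their labels from the 18 libraries of the series. Of 57448 genes in the count table, 15587 reached a level of 1 CPM (a read count scaled to the size of its library) in 3 or more of the 18 libraries and entered the test. MDA-MB-231 is an established triple negative breast cancer line, which grows with a mesenchymal shape and lacks estrogen and progesterone receptor and amplified ERBB2.

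GPS2 (G protein pathway suppressor 2) is a small protein of the nuclear corepressor complex that contains NCOR1, TBL1X or TBL1XR1 and the histone deacetylase HDAC3. Outside the nucleus it inhibits UBC13 (UBE2N), the E2 enzyme that builds ubiquitin chains linked through lysine 63. Such chains do not mark proteins for the proteasome, and they serve in signaling from cytokine receptors, in the response to DNA damage and in the activation of AKT. The question behind the comparison is which RNAs differ once GPS2 has been targeted in a triple negative line, with the PI3K/AKT pathway as the study's stated interest.

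The WT group carries no modification and received no treatment. The KO1 group carries the label of a GPS2 knockout with sgRNA set 1 and was also untreated. The sgRNAs of each set were aimed at exons 2 and 6 of GPS2 and were delivered by lentivirus in LentiCRISPRv2, which also carries Cas9. Infected cells were selected with puromycin and kept as a mixed pool without picking clones. No WT library came from cells that had been infected and selected, so the knockout, the virus and the selection cannot be told apart. In a mixed pool, fewer cells with an RNA and less of that RNA in each cell cannot be told apart either. No label says that the 3 replicates of a group were separate cultures, so the p-values measure only the spread between these samples.

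GPS2 RNA did not differ between the groups. GPS2 (ENSG00000132522, chr17:7311324-7315564 of hg38, minus strand) was at 4.39, 4.88 and 4.403 CPM in the 3 WT libraries and at 4.52, 4.45 and 4.5 CPM in the 3 KO1 libraries, and the ranges overlap (log2 fold change -0.04, SE 0.10, adjusted p 0.747). CPM values here were normalized over the 18 libraries, and log2 fold changes are KO1 minus WT unless stated otherwise. Without WT replicate 2 the GPS2 difference was 0.025. Reads were counted over the whole gene, so this level does not measure editing at the targeted exons and does not check the labels. The paper reports a check of the knockout by western blot and genomic PCR. GPS2 also shares 1380 exon bases, 44.7% of its exons, with ENSG00000261915 on the same strand, a gene with a mean of 1.67 counts per library.

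The partners of GPS2 moved little. HDAC3, the deacetylase of the complex, rose from 69.6, 74.7 and 70.5 to 88.8, 89.2 and 96.2 CPM (log2 fold change 0.33, SE 0.041, adjusted p 4.88e-06). TBL1XR1, an exchange factor of the complex, fell by 0.22 on the log2 scale (SE 0.03, adjusted p 1.37e-05). Its relative TBL1X had a log2 fold change of -0.19 (adjusted p 8.53e-05), which rose to 0.00187 without KO1 replicate 1 and to 0.00101 without WT replicate 3. For NCOR1, the scaffold, the value was -0.07 (adjusted p 0.04), past no threshold used here. UBE2N was at 129.6, 131 and 129 CPM in WT and 157, 158 and 166 CPM in KO1 (log2 fold change 0.28, SE 0.032, adjusted p 2.04e-06). UBE2N shares 41.6% of its exon bases with NUDT4 on the other strand, and the strand setting of the counting is not given in the sources used here.

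Sequencing depth lay between 33725461 and 39319910 counted reads in the 6 libraries. The 10 markers of mesenchymal triple negative lines, among them VIM, CD44, AXL and EGFR, summed to 6080 to 6260 CPM in WT and 6290 to 6370 CPM in KO1. ESR1 was below 1.3 CPM in all 6 libraries. Markers of other cell types were low, and several moved with the comparison. The 8 luminal and basal breast markers summed to 42.8 to 51.9 CPM in WT and 32.5 to 36.6 CPM in KO1, with KRT5 at 0 in every library. The 9 fibroblast and endothelial markers summed to 24.2 to 24.9 CPM in WT and 15.3 to 16.2 CPM in KO1, most of it from COL1A1 (means of 16.7 and 13.1 CPM), while COL1A2, DCN and LUM were at or near 0. The 6 leucocyte markers summed to 1.99 to 2.88 CPM in WT and 1.29 to 1.70 CPM in KO1. Of 7 markers of the embryonic kidney cells that packaged the virus, 5 had no counts in either group, and the sum was 1.23 to 1.51 CPM in WT and 1.08 to 1.35 CPM in KO1. Their part in the results was not tested.

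Calls needed an adjusted p no higher than 0.001 together with a 1.5-fold difference. By this rule 715 genes were higher in KO1 (4.59% of the genes tested) and 1447 were lower (9.28%), 2162 in all. Most changes were small. At 2-fold or more, 155 genes were higher and 571 lower, at 4-fold 23 and 47, and at 8-fold 5 and 7. Without a minimum fold, 3191 genes (20.5%) were higher and 3315 (21.3%) were lower at the same adjusted p. The median log2 fold change of all genes tested was -0.011. The counts and medians given for gene groups stand against these shares and this median, and "rose" and "fell" mean an adjusted p no higher than 0.001.

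**Figure D1:**
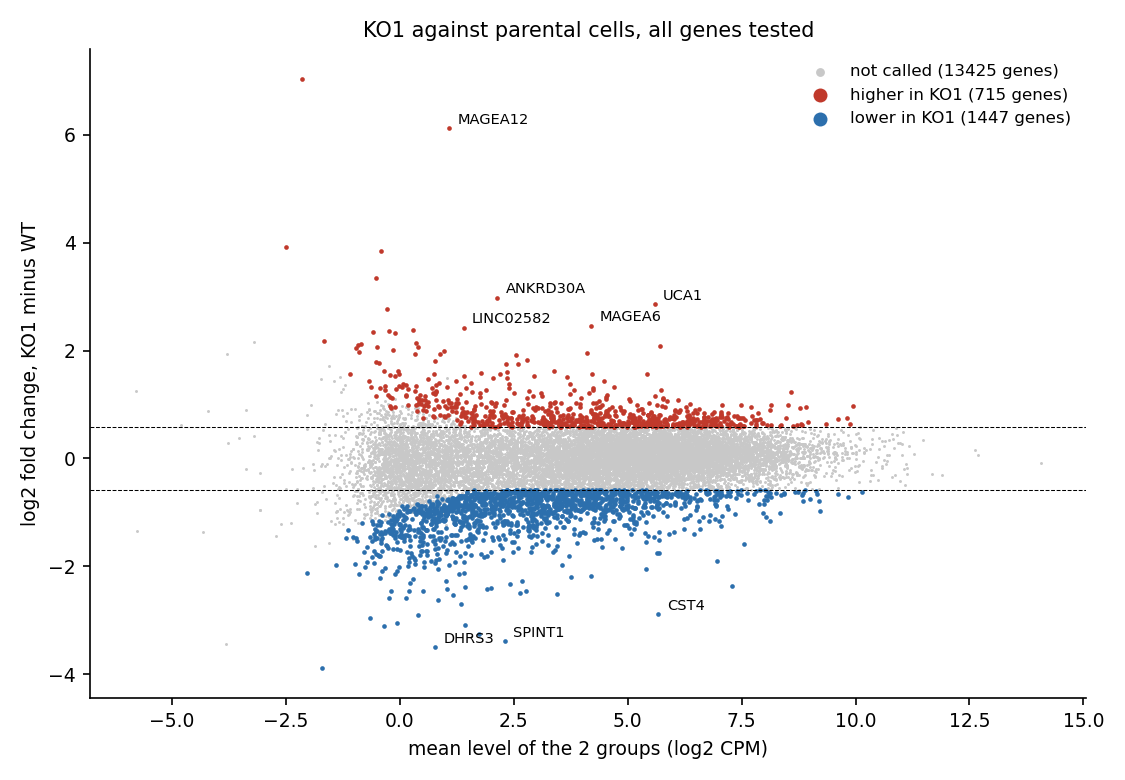
Log2 fold change of KO1 against WT (vertical axis) by the mean level of the 2 groups in log2 CPM (horizontal axis), 1 point per gene tested. Red points are the 715 genes called higher, blue points the 1447 called lower, grey points the rest, and the dashed lines mark 1.5-fold. MAGEA12 stands far above the other named genes, and DHRS3, SPINT1 and CST4 are among the largest falls.

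The largest rise among genes with at least 100 normalized counts in the higher group was in MAGEA12, a melanoma antigen gene of the cancer-testis group, which is silent in most normal tissues outside the germ line. The 3 WT libraries held 3, 1 and 2 MAGEA12 reads and the 3 KO1 libraries 143, 158 and 164. The ratio of KO1 to WT, scaled to effective library size, was 74.2 (95% counting interval 33.8 to 203), and the fitted log2 fold change was 6.13 (SE 0.27, adjusted p 2.84e-10). In the second knockout pool, KO2, the counts were 5, 7 and 3, so this rise was seen in KO1 and not in KO2 (KO1 minus KO2 4.90, adjusted p 1.56e-10). Genes for the largest rises and falls were picked among those whose WT and KO1 libraries do not overlap, so this separation is no result.

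CSAG1 lies head to head with MAGEA12 on chromosome X, with the starts of the 2 genes 36 bases apart on opposite strands, and it was chosen after its values were seen. It had 3, 4 and 3 reads in WT, 47, 49 and 60 in KO1 and 1, 2 and 2 in KO2, a ratio of KO1 to WT, scaled in the same way, of 14.9 (95% counting interval 7.91 to 31.8). MAGEA6, another melanoma antigen gene, rose from 5.62, 5.56 and 5.58 CPM in WT to 31.9, 31.6 and 30.01 CPM in KO1 (log2 fold change 2.46, SE 0.062, adjusted p 5.81e-12). In KO2 it was at 7.37, 7.64 and 7.097 CPM, with a log2 fold change of 0.39 against WT (adjusted p 0.000938). MAGEA3 rose less in KO1, from 2.81, 2.55 and 2.58 to 7.86, 7.42 and 7.23 CPM (log2 fold change 1.49, SE 0.10, adjusted p 1.16e-08), and was at 25.6, 26.98 and 25.6 CPM in KO2. Thus MAGEA12 and MAGEA6 were higher in KO1 than in KO2 and MAGEA3 was lower. Intervals given for counts cover counting error only.

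Genes farther along the chromosome gave mixed values. GABRA3, a subunit of the GABA receptor whose lower-numbered end lies at -567.5 kb from the MAGEA12 start, rose from 2.81, 2.08 and 1.99 to 7.94, 7.96 and 7.32 CPM (log2 fold change 1.74, SE 0.12, adjusted p 1.72e-08), and KO2 stood at 1.69, 1.72 and 1.71 CPM. GABRE and CETN2 were chosen after their values were seen. GABRE, whose lower-numbered end lies at -780.6 kb from it, was at 6.94, 5.18 and 5.32 CPM in WT and 7.02, 6.47 and 6.21 CPM in KO1, which overlap (adjusted p 0.221). CETN2, 93.2 kb after that start, did not pass (log2 fold change -0.09, adjusted p 0.219). NSDHL, a cholesterol synthesis enzyme 97.2 kb after it, rose by 0.34 on the log2 scale (adjusted p 2.91e-05), below the 1.5-fold limit.

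The stretch before each RefSeq start of these melanoma antigen genes is shown because all 3 rose in KO1. Each run is 150 bases of GRCh38.p14, 5′ to 3′, ending just before the start, and the capitals mark the longest run of bases that the 3 genes share within it, of 21 bases. The MAGEA3 and MAGEA6 windows of 300 bases around the start were identical in 300 of 300 bases, so reads of these genes could have been assigned to either, and the split between MAGEA3 and MAGEA6 is uncertain.
MAGEA12 (chrX:152733607-152733756, plus strand): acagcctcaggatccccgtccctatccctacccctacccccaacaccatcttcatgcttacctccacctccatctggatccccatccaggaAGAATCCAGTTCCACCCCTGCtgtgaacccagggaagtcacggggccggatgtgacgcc
MAGEA3 (chrX:152698644-152698793, plus strand): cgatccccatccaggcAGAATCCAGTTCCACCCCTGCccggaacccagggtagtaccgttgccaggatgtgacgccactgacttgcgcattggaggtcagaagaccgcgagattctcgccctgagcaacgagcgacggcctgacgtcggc
MAGEA6 (chrX:152769690-152769839, minus strand): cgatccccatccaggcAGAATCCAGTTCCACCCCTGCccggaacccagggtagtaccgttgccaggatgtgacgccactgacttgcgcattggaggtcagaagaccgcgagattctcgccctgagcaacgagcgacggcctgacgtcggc
The MAGEA12 stretch holds 4 CG dinucleotides and the MAGEA3 and MAGEA6 stretches 13 each. The shared run lies 59 to 39 bases before the MAGEA12 start and 134 to 114 bases before the starts of the other two.

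**Figure D2:**
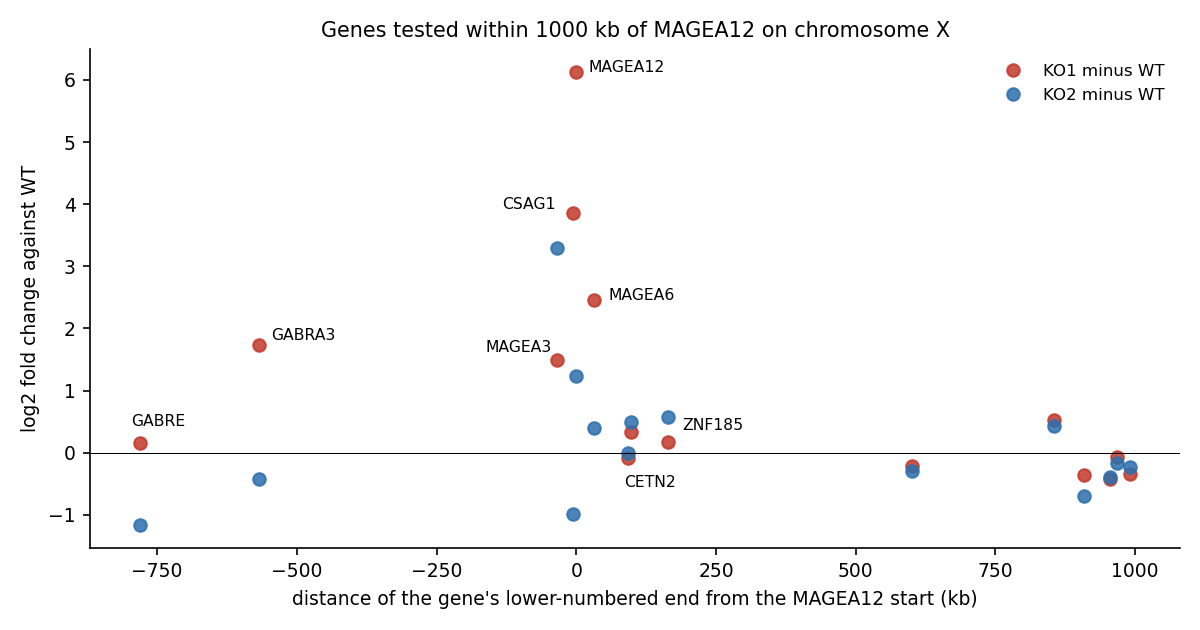
Log2 fold change against WT in KO1 and in KO2 (vertical axis) for the genes tested within 1000 kb of MAGEA12 on chromosome X, by the distance in kb of the lower-numbered end of each gene from the MAGEA12 start (horizontal axis). KO1 points of MAGEA12, CSAG1, MAGEA6 and GABRA3 stand above their KO2 points, the MAGEA3 point of KO1 stands below, and CETN2 is near 0 in both.

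Among the other large rises, UCA1, a long noncoding RNA known from bladder cancer, rose from 12.3, 10.96 and 11.3 CPM in WT to 87.9, 73.1 and 93.3 CPM in KO1 (log2 fold change 2.86, SE 0.083, adjusted p 1.47e-11), and KO2 reached 92.01, 82.8 and 79.5 CPM. UCA1 shares 26.1% of its exon bases with LINC01764 on the other strand, which had a mean of 2.5 counts. ANKRD30A, a breast and testis antigen also known as NY-BR-1, rose from 1.05, 1.096 and 0.778 to 8.46, 7.12 and 7.84 CPM (log2 fold change 2.98, SE 0.14, adjusted p 4.23e-10), whereas KO2 was at 0.5999, 0.617 and 0.517 CPM. LINC02582, a long noncoding RNA, rose from 0.878, 0.877 and 0.698 to 4.31, 4.397 and 4.67 CPM (log2 fold change 2.43). ZNF114, a zinc finger gene of the KRAB family, rose from 18.1, 21.7 and 19.5 to 86.4, 73.02 and 95.03 CPM (log2 fold change 2.08), with KO1 replicate 2 lowest of the 3.

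The remaining large rises were likewise picked among genes without overlap between the WT and KO1 libraries. RADX, a protein that binds single-stranded DNA at replication forks, rose from 0.790, 0.740 and 0.805 to 2.76, 3.53 and 3.17 CPM (log2 fold change 2.00). NRK, a kinase gene of the X chromosome, rose from 2.87, 3.01 and 3.14 to 10.99, 9.36 and 12.3 CPM (log2 fold change 1.83). ID3, an inhibitor of basic helix-loop-helix factors that BMP signaling induces, rose from 2.605, 2.27 and 2.63 to 7.94, 7.36 and 7.67 CPM (log2 fold change 1.59). The long noncoding RNAs LINC00452 and LINC02009 had log2 fold changes of 1.92 and 1.74. For RADX, NRK, ID3, LINC00452 and LINC02009 KO2 was higher than WT as well, by 1.92, 2.06, 1.59, 2.13 and 1.71 on the log2 scale, measured against the same WT libraries.

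The largest falls were in genes of unlike roles. DHRS3, which reduces retinaldehyde to retinol, had 86, 118 and 137 reads in WT and 10, 11 and 10 in KO1, a ratio scaled to effective library size of 0.087 (95% counting interval 0.0582 to 0.126) and a log2 fold change of -3.50 (SE 0.23, adjusted p 7.7e-09). SPINT1, the inhibitor of the serine proteases matriptase and HGF activator, fell from 9.19, 8.11 and 9.66 to 0.815, 0.944 and 0.828 CPM (log2 fold change -3.40, SE 0.13, adjusted p 1.09e-10). CD74, the invariant chain of MHC class II, fell from 5.502, 6.05 and 6.58 to 0.736, 0.512 and 0.663 CPM (log2 fold change -3.26, SE 0.16, adjusted p 4.74e-10). No overlap between the groups was a condition of the choice of these genes. FCGBP, a mucin-like IgG binding protein, fell from 3.95, 4.602 and 4.59 to 0.736, 0.782 and 0.525 CPM (log2 fold change -2.70).

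Signaling and membrane genes were also among them. JAK3, the kinase of the common gamma chain receptors, fell from 4.01, 3.62 and 3.81 to 0.683, 0.863 and 0.442 CPM (log2 fold change -2.53). NFATC4, a calcium-responsive transcription factor, fell from 12.5, 10.98 and 11.2 to 2.21, 2.27 and 1.88 CPM (log2 fold change -2.46). KCNN3, a calcium-activated potassium channel, fell from 5.56, 7.45 and 5.99 to 1.39, 1.403 and 0.773 CPM (log2 fold change -2.42). Groups without overlap were a condition of the choice for these 3 genes too. PDK4, the kinase that switches off pyruvate dehydrogenase, fell from 9.51, 11.2 and 11.01 to 2.103, 1.75 and 1.82 CPM (log2 fold change -2.50). GSDMB, a gasdermin, fell from 4.16, 2.85 and 3.27 to 0.710, 0.7014 and 0.525 CPM (log2 fold change -2.42). CDH5, the cadherin of endothelial junctions, fell from 3.13, 2.602 and 3.46 to 0.421, 0.674 and 0.414 CPM (log2 fold change -2.62), beside the lower sum of the endothelial markers given above, of which it is one.

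**Figure D3:**
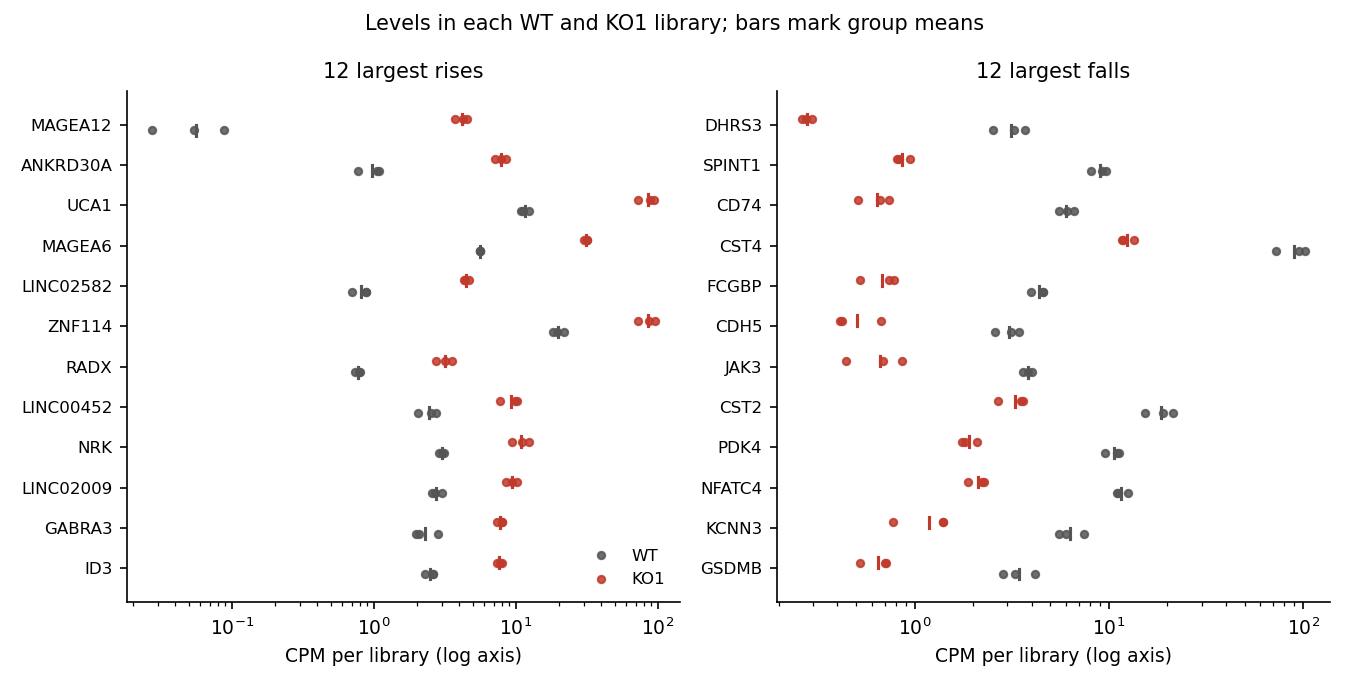
CPM in each library on a log axis for the 12 largest rises and the 12 largest falls in KO1 among called genes with at least 100 normalized counts in the higher group, with 1 point per library (grey WT, red KO1) and a bar at each group mean (n = 3). The WT and KO1 points do not overlap for any gene shown, which was a condition of the choice.

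Cystatins are small inhibitors of cysteine proteases, several of them encoded side by side on chromosome 20. CST4 fell from 72.5, 94.8 and 102 to 11.8, 13.5 and 11.7 CPM (log2 fold change -2.88, SE 0.11, adjusted p 7.86e-11), and CST2 from 15.3, 18.98 and 21.3 to 3.602, 2.67 and 3.53 CPM (log2 fold change -2.52). WT replicate 1 was the lowest WT library in both genes and still stood well above KO1. CST1, chosen after its values were seen, fell from 211, 278 and 292 to 52.3, 47.5 and 53.9 CPM (log2 fold change -2.36). CST3, the ubiquitous family member of the same stretch and also chosen afterwards, fell by 0.45 (adjusted p 5.24e-06). CST7, a member farther along chromosome 20 and likewise chosen afterwards, did not pass (log2 fold change -0.11, adjusted p 0.802). The secreted cystatins are similar in sequence, so reads could be shared between them.

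DNA replication genes were higher in KO1. Of the 24 licensing and helicase genes, which load and fire the replicative helicase, 20 rose and none fell, with a median log2 fold change of 0.55. CDC6, the loader of the MCM helicase, rose from 116, 122 and 118 to 235, 237 and 249 CPM (log2 fold change 1.00, SE 0.034, adjusted p 4.7e-11), and ORC1, the largest subunit of the origin recognition complex, from 14.2, 14.1 and 13.7 to 27.2, 27.6 and 27 CPM (log2 fold change 0.94). Of the 28 polymerase, clamp and fork genes, 26 rose and 1 fell, with a median of 0.42. UHRF1, which reads hemimethylated DNA behind the fork, rose from 90.3, 96.9 and 92.6 to 172, 167 and 178 CPM (log2 fold change 0.87), and CHAF1A, a histone chaperone of the fork, by 0.85. The 1 member that fell was POLD4, the smallest subunit of DNA polymerase delta, from 10.2, 8.38 and 9.02 to 3.39, 4.34 and 3.78 CPM (log2 fold change -1.28, SE 0.11, adjusted p 1.21e-07). In KO2 the medians of the same 2 groups against the shared WT libraries were 0.59 and 0.49.

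The supply of building blocks moved the same way. Of 9 genes for deoxynucleotide supply 7 rose and 1 fell, and of 22 genes of pyrimidine and purine synthesis 14 rose and 1 fell, with medians of 0.38 and 0.30. RRM2, the small subunit of ribonucleotide reductase, rose from 230.1, 258 and 244 to 484, 476 and 510.4 CPM (log2 fold change 0.99, SE 0.041, adjusted p 1.45e-10), while RRM2B, its p53-induced counterpart, fell by 0.36. UMPS, the last enzyme of uridine monophosphate synthesis, rose from 30.6, 32.6 and 31.01 to 54.97, 53.8 and 57.2 CPM (log2 fold change 0.80). CTPS1 rose by 0.67 and its relative CTPS2 fell by 0.57. Of the replication-dependent histone genes, whose mRNAs lack a poly(A) tail and are kept by the removal of ribosomal RNA used for these libraries, 28 of 44 listed passed the filter on low values, and 21 rose and 1 fell (median 0.43), with 0 lower without KO1 replicate 1 or KO1 replicate 3. H4C9 had a log2 fold change of 0.94 and H3C12 of 0.85, and H3C12 shares 40.3% of its exon bases with H2AC17.

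Most regulators of the entry into S phase rose in KO1. Of 14 cyclin, CDK and E2F genes 12 rose, 1 fell and 1 did not pass, with a median of 0.45. CDC25A, the phosphatase that activates CDK2, rose from 34.1, 36.9 and 32.05 to 74.3, 70.1 and 78.8 CPM (log2 fold change 1.10, SE 0.055, adjusted p 6.38e-10), and CCNE2, a cyclin E, from 10.7, 9.53 and 10.5 to 20.5, 20.3 and 21.9 CPM (log2 fold change 1.01). CCNE2 shares 37.0% of its exon bases with INTS8 on the other strand. CCND1 rose by 0.29 and CCND2, the other D cyclin named here, fell from 181, 176 and 176 to 77.7, 84.3 and 78.1 CPM (log2 fold change -1.17, SE 0.037, adjusted p 2.31e-11). Of the 8 CDK inhibitors and pocket proteins tested, 3 rose and 4 fell. CDKN1A (p21) fell from 52.4, 55.8 and 58.2 to 35.8, 35.2 and 37.4 CPM (log2 fold change -0.64) and CDKN1C (p57) by 0.95. CDKN1B (p27), a FoxO target, did not pass (log2 fold change -0.21, adjusted p 0.00126). It did pass without WT replicate 1 (adjusted p 0.000126), with upper-quartile scaling (0.000513) and with library totals as the scaling (0.000373).

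Mitosis genes rose by less. Of 19 mitotic kinase and checkpoint genes 12 rose, and of 31 spindle and kinetochore genes 22 rose, with none lower in either group and medians of 0.25 and 0.23. PLK1, the polo-like kinase of mitotic entry, rose by 0.55, FOXM1, the transcription factor of many mitotic genes, by 0.54, and CDCA8 (borealin), a subunit of the Aurora B complex, by 0.59. CDCA8 went from 76.2, 81.2 and 79.3 CPM in WT to 121, 120.2 and 121 CPM in KO1. In the whole mitosis list of 50 genes only 1 reached 1.5-fold, against 19 of the 52 DNA replication genes.

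**Figure D4:**
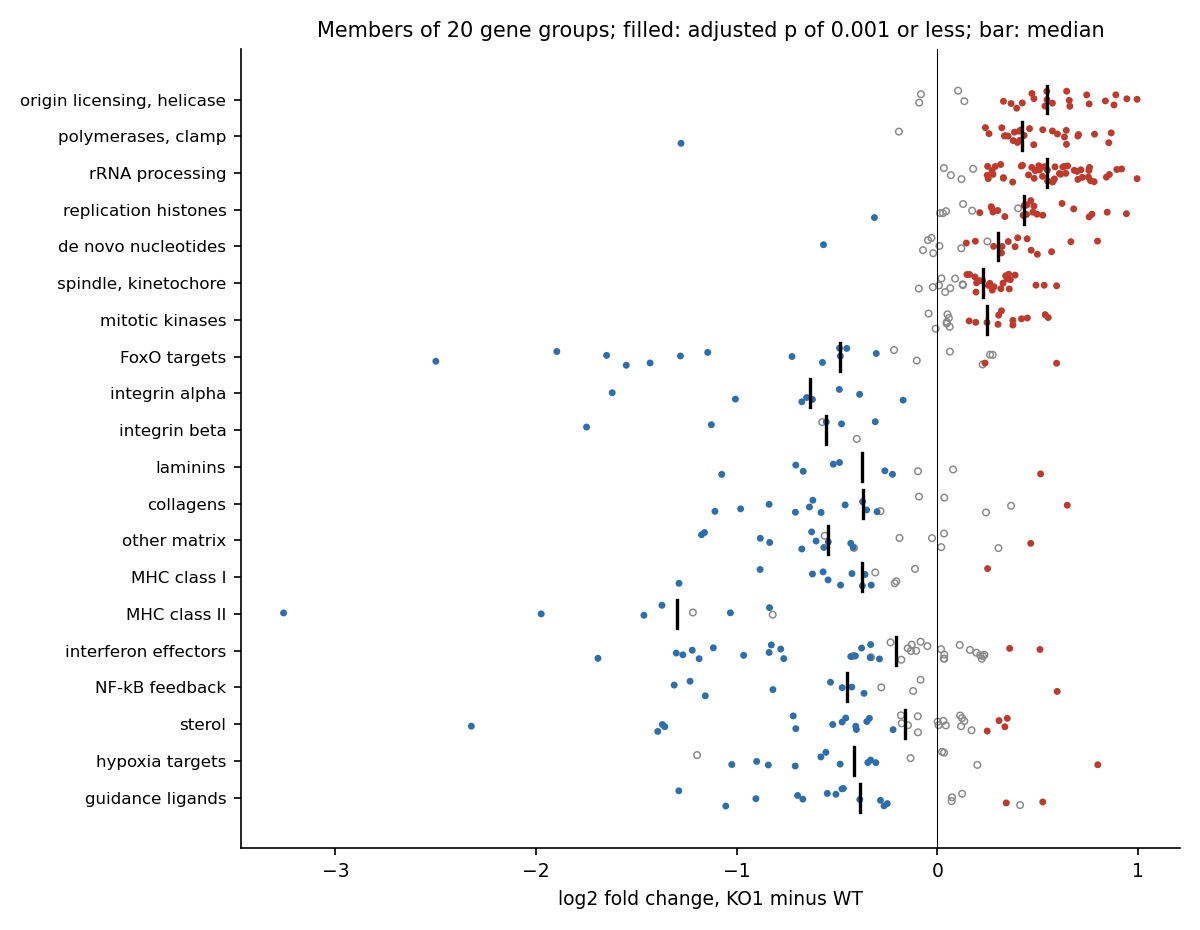
Log2 fold change of KO1 against WT (horizontal axis) for the tested members of 20 gene groups (vertical axis), 1 point per gene. Filled points passed an adjusted p of 0.001 (red higher, blue lower), open points did not, and black bars are group medians. Replication, rRNA processing and histone groups lie right of 0 and integrin, MHC and matrix groups mostly left of it.

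Ribosome biogenesis genes rose almost throughout. Of 52 genes of rRNA processing and modification 48 rose and none fell, all 52 values were above 0, and the median was 0.55. NOP56, a core protein of the box C/D complexes that methylate rRNA, rose from 189, 189 and 185 to 378, 369 and 389.9 CPM (log2 fold change 1.00, SE 0.031, adjusted p 2.31e-11), and UTP4, a subunit of the small subunit processome, from 63.1, 65.4 and 65.98 to 124, 119 and 129 CPM (log2 fold change 0.92). Of 17 genes of RNA polymerases I and III 11 rose and 2 fell, with 1 falling once KO1 replicate 3 was left out. POLR1G rose from 5.36, 5.04 and 4.91 to 9.701, 9.01 and 11.1 CPM (log2 fold change 0.94), and it overlaps ERCC1 on the other strand over 49.8% of its exon bases. POLR3A, the largest subunit of RNA polymerase III, fell by 0.24.

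MYC, which drives many of these genes, was at 294, 267 and 279 CPM in WT and 319.6, 323 and 334 CPM in KO1 (log2 fold change 0.20, SE 0.037, adjusted p 0.000212). Without KO1 replicate 3 the MYC value no longer passed (adjusted p 0.00232). It also failed with library totals as the scaling (0.00147) and with all 18 libraries in 1 fit (0.0194). In KO2 MYC was below the same WT libraries (log2 fold change -0.31, adjusted p 3.04e-05), and KO1 minus KO2 was 0.51 (adjusted p 1.91e-08). The whole ribosome biogenesis list had a median of 0.53 in KO1 and 0.47 in KO2. A part of MYC in these rises was not tested. Of the 11 MYC network factors tested 2 rose and 4 fell, and leaving out KO1 replicate 3 left 0 and 2. MXI1, an antagonist of MYC, fell by 0.66. Cytosolic aminoacyl tRNA synthetases went both ways, with 6 of 20 higher and 9 lower, and 5 lower without KO1 replicate 1. FARSA rose by 0.64 and HARS1 by 0.43, and CARS1 fell by 0.63.

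Promoter sequence was searched for the sites of factors known to act on these groups. The window ran from 250 bases before to 50 after the first RefSeq start of each gene in GRCh38.p14, and both strands were read. An E2F site, spelled here as TTTGGCGC, TTTCCCGC, TTTCGCGC or TTTGCCGC, was found in 20 of the 45 DNA replication genes with a promoter entry (44.4%), against 3.33% of all 27303 promoters and 5.33% of the 11023 promoters of genes tested. The median log2 fold change was 0.47 in genes with the site and 0.54 in genes without. The E-box CACGTG of MYC and MAX was found in 21 of 58 ribosome biogenesis promoters (36.2%), against 7.44% of all promoters and 9.84% of those of genes tested, and the medians with and without it were 0.61 and 0.47. A match is a description of the letters and says nothing of binding. The bases up to the start are shown for named members that hold a site, UHRF1, UTP4 and POLR1G, which rose, and POLR3A, which fell, with the site in capitals.
UHRF1 (chr19:4909447-4909500, plus strand): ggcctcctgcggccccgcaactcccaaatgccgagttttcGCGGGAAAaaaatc
UTP4 (chr16:69132593-69132648, plus strand): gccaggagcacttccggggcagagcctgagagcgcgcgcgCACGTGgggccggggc
POLR1G (chr19:45406592-45406643, plus strand): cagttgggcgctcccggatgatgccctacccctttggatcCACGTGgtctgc
POLR3A (chr10:78029516-78029590, minus strand): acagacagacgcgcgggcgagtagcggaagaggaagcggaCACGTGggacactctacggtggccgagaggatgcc
The capitals start 14 bases before the UHRF1 start, 16 before the UTP4 start, 12 before the POLR1G start and 35 before the POLR3A start.

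Genes of PI3K and AKT signaling went both ways. AKT1 was at 135, 133 and 135 CPM in WT and 145, 138 and 141 CPM in KO1 (log2 fold change 0.05, adjusted p 0.146), which does not pass. Of the 17 kinases of the list 5 rose and 6 fell. PIK3C2B, a class II PI3-kinase, fell by 1.02 and SGK1, a kinase related to AKT, rose by 0.53. Among the regulatory subunits PIK3R1 and PIK3R3 rose by 0.39 and 0.51, and PIK3IP1, an inhibitor of PI3-kinase, fell from 4.302, 4.49 and 4.54 to 1.52, 1.97 and 1.104 CPM (log2 fold change -1.55, SE 0.16, adjusted p 8.77e-07). DDIT4 (REDD1), an inhibitor of mTORC1, fell from 68.8, 86.3 and 82.3 to 23.8, 26.2 and 20.98 CPM (log2 fold change -1.76, SE 0.082, adjusted p 3.67e-10), and AKT1S1 (PRAS40), an AKT substrate, rose by 0.48.

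FoxO transcription factors are held outside the nucleus when AKT is active. Many FoxO targets were lower in KO1, and a link to AKT activity was not tested. Of 21 FoxO targets tested 13 fell and 2 rose, with a median of -0.48. TXNIP, which limits glucose uptake, fell from 200.3, 169 and 217 to 51.6, 54.8 and 52.9 CPM (log2 fold change -1.90, SE 0.069, adjusted p 7.86e-11), and PDK4, named above, fell most. RBL2 (p130) fell by 0.72, and CITED2 rose by 0.59. The other gene that rose, GADD45A, no longer passed without any 1 of 4 libraries, with an adjusted p of 0.0057 without KO1 replicate 1. Of the factors themselves, FOXO1 fell by 0.52 and FOXO4 by 0.93, and FOXO3 and FOXO6 did not pass. The letters TGTTTAC of a FoxO site were found in 4 of 21 promoters of FoxO factors and targets (19.0%), against 3.41% of all promoters and 2.30% of those of genes tested. The TXNIP stretch is given as the example that fell, with the site, read on the other strand, in capitals.
TXNIP (chr1:145996657-145996743, minus strand): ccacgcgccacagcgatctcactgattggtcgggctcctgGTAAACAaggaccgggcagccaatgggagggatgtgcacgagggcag
The site starts 124 bases before the TXNIP start.

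Integrins, the receptors for extracellular matrix, were lower in KO1. Of 12 alpha subunits listed 8 passed the filter and 8 fell, and of 8 beta subunits 7 passed and 5 fell, with medians of -0.64 and -0.55. ITGB4, the laminin receptor subunit of hemidesmosomes, fell from 74.1, 76.2 and 79.4 to 24.4, 24.3 and 20.5 CPM (log2 fold change -1.75, SE 0.058, adjusted p 4.43e-11). ITGA10, a collagen receptor subunit, fell from 19.1, 14.5 and 15.6 to 5.23, 5.15 and 5.798 CPM (log2 fold change -1.62, SE 0.10, adjusted p 6.31e-09), ITGA7 by 1.01 and ITGB3 by 1.13. ITGB3 shares 33.2% of its exon bases with ENSG00000259753, which had a mean of 0 counts.

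Their ligands moved with them. Of 10 laminin chains tested, which form basement membranes, 7 fell and LAMA1 alone rose. LAMA3 fell from 70.8, 58.6 and 60.6 to 29.3, 35.9 and 26.2 CPM (log2 fold change -1.07), and LAMA1 rose from 16.5, 15.01 and 13.5 to 22.2, 21.2 and 21.6 CPM (log2 fold change 0.52). Of 17 collagen chains tested of 25 listed, 11 fell and 1 rose (median -0.37). COL6A2 fell from 104, 105 and 115 to 50.7, 52.9 and 48.8 CPM (log2 fold change -1.11), and COL7A1, the collagen of anchoring fibrils, rose from 66.6, 67.1 and 58.4 to 108, 103 and 93.6 CPM (log2 fold change 0.65). Of 19 other matrix genes 11 fell and 1 rose (median -0.54). HSPG2 (perlecan) fell from 165, 143 and 149 to 68.01, 75.1 and 63.8 CPM, LOXL4, an enzyme that crosslinks collagen, by 1.18 and FN1 (fibronectin) by 0.63, whereas THBS1 (thrombospondin 1) rose by 0.47. COL1A1 is also among the fibroblast markers whose sum was lower in KO1.

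Proteases and clotting factors showed both directions. F3 (tissue factor), the starter of coagulation and a YAP target, rose from 238, 217 and 228 to 557, 497 and 571 CPM (log2 fold change 1.23, SE 0.048, adjusted p 1.09e-10). F13A1, the transglutaminase that crosslinks fibrin, rose from 0.146, 0.3013 and 0.456 to 1.58, 1.699 and 1.38 CPM (log2 fold change 2.32, SE 0.28, adjusted p 3.52e-06). PLAT (tissue plasminogen activator) fell from 341, 316 and 342 to 166, 169.6 and 168 CPM (log2 fold change -1.01, SE 0.036, adjusted p 6.31e-11). Opposite moves of F3 and PLAT were larger than the spread in either group. Of 10 metalloprotease genes tested of 16 listed, 2 rose and 4 fell. MMP3 (stromelysin 1) rose from 3.77, 6.301 and 5.32 to 12.9, 10.6 and 12.7 CPM (log2 fold change 1.21, SE 0.14, adjusted p 1.72e-06), with WT replicate 1 lowest, and ADAM8 fell from 156, 163 and 174 to 77.8, 79.9 and 72.5 CPM (log2 fold change -1.11, SE 0.044, adjusted p 1.19e-10). Of 11 protease inhibitors tested none rose and 7 fell, with SPINT1 first and TFPI, the inhibitor of tissue factor, lower by 0.87.

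Genes of the epithelial and mesenchymal states did not move one way. Of 21 epithelial genes 7 rose and 10 fell. ESRP1, an epithelial splicing factor, fell from 1.93, 1.95 and 1.99 to 0.342, 0.620 and 0.221 CPM (log2 fold change -2.31), ELF3 from 6.91, 7.48 and 7.09 to 1.95, 2.91 and 1.99 CPM (log2 fold change -1.67), and PKP2, a desmosomal protein, rose by 0.50. KRT18 rose by 0.48 and shares 17.1% of its exon bases with KRT8 on the other strand. Of 13 mesenchymal genes 2 rose and 5 fell, and 3 fell without WT replicate 3 or without KO1 replicate 1. The number higher was 1 without any 1 library but WT replicate 1. VIM (vimentin) was at 1313, 1368 and 1405 CPM in WT and 1529, 1568 and 1545 CPM in KO1 (log2 fold change 0.17, SE 0.034, adjusted p 0.000617), and it no longer passed without WT replicate 2 (adjusted p 0.00226) and under several other settings. CD44 did not differ (log2 fold change 0.01, adjusted p 0.719), and its sign turned under 2 scalings.

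YAP and TEAD targets were split, with 7 of 20 higher and 7 lower, and 4 lower without KO1 replicate 1. Besides F3, TEAD4 rose by 0.67, while CCN2 fell by 0.56 and CCN1 by 0.42, both of them secreted matrix proteins and classical targets. Of 20 TGF-beta and BMP feedback genes 5 rose and 6 fell. FST (follistatin), which binds activins, rose from 35.1, 30.1 and 33.9 to 67.8, 61.5 and 70.02 CPM (log2 fold change 0.99). The latent TGF-beta binding proteins LTBP1 and LTBP3 fell by 1.12 and 1.31. GGAATG, the letters of a TEAD site, stood in 6 of 14 promoters of the YAP list (42.9%), against 14% of all promoters and 10.9% of those of genes tested.

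Of 39 chemokine, cytokine and receptor genes tested 18 fell, 5 rose and 16 did not pass. IL1A fell from 32.8, 26.4 and 31.3 to 6.18, 8.26 and 5.66 CPM (log2 fold change -2.19, SE 0.11, adjusted p 7.19e-10) and IL1B from 70.5, 62.3 and 71.7 to 16.2, 20.5 and 13.2 CPM (log2 fold change -2.05, SE 0.10, adjusted p 6.38e-10). In both interleukin 1 genes KO1 replicate 2 was the highest of the KO1 libraries. Their receptor IL1R1 fell by 1.27. CCL2, the chemokine that draws monocytes, rose from 15.04, 13.7 and 13.9 to 29.6, 28.1 and 37.7 CPM (log2 fold change 1.14, SE 0.093, adjusted p 6.49e-08), and the chemokine receptor CXCR4 rose by 0.93. Of 15 interleukins and growth cytokines tested of 20 listed, 6 fell and 2 rose, the latter 0 without KO1 replicate 1 or KO1 replicate 3. Of 8 chemokines tested of 19 listed 4 fell, of which 0 were left without WT replicate 3, 1 without KO1 replicate 1 or KO1 replicate 3 and 2 with a replicate block. Of 16 receptors 8 fell and 2 rose, with 5 lower without WT replicate 2, WT replicate 3 or KO1 replicate 1, and 1 higher without KO1 replicate 3.

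NF-kB carries the signal of interleukin 1 and tumor necrosis factor receptors to the nucleus and induces its own inhibitors. Of 12 feedback targets tested 8 fell and 1 rose, with a median of -0.45. ICAM1, an adhesion receptor for leucocytes, fell from 111, 104 and 108 to 42.2, 50.04 and 39.5 CPM (log2 fold change -1.31, SE 0.063, adjusted p 4.73e-10), and BCL2A1, a survival protein, from 9.28, 6.96 and 8.24 to 3.55, 4.05 and 2.93 CPM (log2 fold change -1.23). NFKBIB, an inhibitor of NF-kB, rose by 0.60. Of 8 NF-kB factors 3 fell and none rose, RELB by 0.74 and NFKB2, its precursor partner, by 0.58. TLR2, a receptor for bacterial lipoproteins that was chosen after its values were seen, fell from 7.84, 7.34 and 7.79 to 2.87, 3.29 and 2.76 CPM (log2 fold change -1.38). The leucocyte markers, of which CD14 is another, were lower in sum in KO1 as given above, and PTPRC and CD3E were near 0 in both groups.

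Among interferon-stimulated genes more fell than rose. Of 40 effectors tested 17 fell, 2 rose and 21 did not pass (median -0.21), with 4 higher without WT replicate 2 and 5 when all genes with at least 1 count were tested. BST2 (tetherin), which holds budding viruses at the membrane, fell from 15.7, 16.4 and 16.3 to 4.81, 5.15 and 5.25 CPM (log2 fold change -1.69, SE 0.074, adjusted p 2.44e-10), and IFI44L from 2.58, 2.27 and 2.25 to 1.02, 0.9981 and 0.883 CPM (log2 fold change -1.30). IFIT3 and IFIT5, which bind viral RNA, rose from 71.1, 75.6 and 72.7 to 105, 108 and 104 CPM and from 55.98, 57.9 and 59.5 to 75.8, 74.1 and 75.7 CPM (log2 fold changes 0.51 and 0.36). Of 13 sensors and factors 6 fell, among them IFIH1 (MDA5), a sensor of double-stranded RNA, by 0.68. The letters GAAANNGAA of the interferon-stimulated response element were found in 25 of 38 promoters of the whole interferon list (65.8%), against 8.29% of all promoters and 6.48% of those of genes tested, with medians of -0.18 with the letters and -0.13 without. Stretches with these letters, on either strand and in capitals, are given for the 2 members that rose and for the 2 effectors named as falling. In the BST2 stretch 2 matches overlap in 1 run of capitals.
IFIT3 (chr10:89327836-89327924, plus strand): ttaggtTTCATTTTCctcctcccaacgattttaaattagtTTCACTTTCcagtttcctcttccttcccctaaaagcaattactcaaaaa
IFIT5 (chr10:89414510-89414567, plus strand): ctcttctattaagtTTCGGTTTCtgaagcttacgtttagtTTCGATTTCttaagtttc
BST2 (chr19:17405706-17405794, minus strand): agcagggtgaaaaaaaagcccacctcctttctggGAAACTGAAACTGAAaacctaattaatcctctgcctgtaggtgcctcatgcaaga
IFI44L (chr1:78620335-78620423, plus strand): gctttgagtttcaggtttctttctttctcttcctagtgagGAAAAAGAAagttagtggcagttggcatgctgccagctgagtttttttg
The letters thus stand before genes of both directions.

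Most antigen presentation genes fell. Of 15 MHC class I genes 10 fell and 1 rose (median -0.37). HLA-B, a heavy chain that presents peptides to T cells, fell from 149, 162 and 163 to 85.05, 89.2 and 85.6 CPM (log2 fold change -0.88, SE 0.039, adjusted p 2.41e-10), HLA-F by 1.29, and TAP2, a subunit of the peptide transporter, rose by 0.25. HLA-B shares 30.7% of its exon bases with DHFRP2, which had a mean of 0 counts. HLA genes are alike in sequence, so reads can be split between them. Of 12 MHC class II genes listed 8 passed the filter and 6 fell, with a median of -1.29. CD74, given above, fell most. HLA-DRA had 21, 16 and 28 reads in WT and 4, 8 and 5 in KO1, a ratio scaled to effective library size of 0.25 (95% counting interval 0.138 to 0.432), and its adjusted p of 0.000212 rose to 0.00195 without KO1 replicate 1, to 0.00177 without KO1 replicate 3 and to 0.00166 without WT replicate 3.

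Sterol and lipid genes were lower in part. Of 32 sterol genes 14 fell and 4 rose (median -0.16), with 8 higher when all genes with at least 1 count were tested, and of 24 fatty acid genes 12 fell and 1 rose, with 6 lower without WT replicate 3 or without KO1 replicate 1. ABCG1, which exports cholesterol, fell from 7.87, 9.34 and 9.26 to 2.02, 1.83 and 1.49 CPM (log2 fold change -2.32, SE 0.13, adjusted p 1.29e-09), and GRAMD1B, which carries cholesterol from the plasma membrane to the endoplasmic reticulum, from 89.7, 82.5 and 85.5 to 33.2, 33.7 and 32.4 CPM (log2 fold change -1.39, SE 0.043, adjusted p 2.31e-11). MVK, an early enzyme of sterol synthesis, rose by 0.35. SCD, the desaturase that makes oleate, fell by 0.48, PPARA, the regulator of fatty acid oxidation, by 0.80, and PPARGC1B rose by 0.41.

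Most hypoxia targets fell, and glycolysis was split. Of 16 hypoxia targets 10 fell and 1 rose (median -0.41), VEGFA, the angiogenic growth factor, from 200.3, 236 and 219.8 to 110.4, 114 and 103 CPM (log2 fold change -1.02) and CA12, a carbonic anhydrase, by 0.90. The peptide hormone ADM (adrenomedullin) was the 1 that rose, by 0.80. Of 23 glycolysis genes 9 rose and 5 fell. GAPDH rose by 0.49 and PKM by 0.43, and ALDOC fell by 0.86 and the lactate transporter SLC16A1 by 1.51.

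ER chaperones were lower in part, and the amino acid program of ATF4 went both ways. Of 12 ER chaperones 7 fell and none rose, HSP90B1 by 0.62 and PDIA4 by 0.44, while of 12 heat shock proteins 4 rose and 3 fell, DNAJA1 by 0.30 upward and HSPA1A by 0.66 downward. HSPA1A and HSPA1B are nearly the same gene, and both had a log2 fold change of -0.66. Of 8 ATF4 regulators 4 fell. Among 15 enzymes and transporters of the program 7 rose and 4 fell. SLC7A11, the cystine importer, rose from 211, 233 and 215 to 348, 336 and 348 CPM (log2 fold change 0.63) and ASNS (asparagine synthetase) fell from 139.5, 123 and 130.5 to 56.97, 77.5 and 43.4 CPM (log2 fold change -1.16), with KO1 replicate 2 highest of the 3. ASNS shares 49.3% of its exon bases with ENSG00000284707 on the same strand, which was not analyzed here.

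Mitochondrial, iron and lysosome genes went both ways. Of 33 nuclear genes of respiration 15 rose and 2 fell, with 0 lower without KO1 replicate 1 and 1 without WT replicate 2 or KO1 replicate 2, and of the 13 mitochondrial mRNA genes 7 rose and 1 fell, with 4 higher without WT replicate 3. The number lower was 0 without WT replicate 2, WT replicate 3, KO1 replicate 2 or KO1 replicate 3, and 2 without KO1 replicate 1. MT-ND2 was at 580.2, 715 and 693 CPM in WT and 1347, 1000 and 1018 CPM in KO1 (log2 fold change 0.74). TFRC, the transferrin receptor that takes up iron, rose from 659, 673 and 643 to 1281, 1299 and 1361 CPM (log2 fold change 0.98, SE 0.035, adjusted p 6.31e-11), and SLC25A37, the iron importer of mitochondria, fell by 0.60. In the iron list 5 of 13 genes rose and 3 fell. FTL, the ferritin light chain, rose by 0.53 and SLC40A1, the iron exporter, fell by 0.74. MT1E rose by 0.70 among 6 metallothionein and zinc genes tested of 11 listed, and 2 fell, of which 1 was left without any 1 of 4 libraries (WT replicates 2 and 3, KO1 replicates 1 and 2) and 0 without KO1 replicate 3. TFEB, the regulator of lysosome genes, fell from 6.17, 6.33 and 5.99 to 1.66, 1.81 and 2.13 CPM (log2 fold change -1.74, SE 0.12, adjusted p 1.34e-08). Of 26 lysosome genes 11 fell and 5 rose, and of 12 autophagy genes 4 fell and 1 rose, the latter 0 without WT replicate 3 or any 1 of the KO1 libraries, with WIPI1 lower by 0.86 and GABARAPL1 by 1.03.

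Of 22 feedback genes of ERK signaling 10 fell, 3 rose and 9 did not pass. Of 9 MAPK phosphatases tested 5 fell and 2 rose, 1 without any 1 of the 6 libraries. DUSP4 fell from 1076, 1155 and 1157 to 683, 707 and 691 CPM (log2 fold change -0.72) and DUSP14 rose by 0.75. Of 13 Sprouty and ETS genes 5 fell and 1 rose (2 without WT replicate 2), SPRY4 lower by 0.60 and ETS2 higher by 0.49. Of 20 immediate early genes 8 fell and none rose, with 5 lower without WT replicate 3, KO1 replicate 1 or KO1 replicate 2, 4 without KO1 replicate 3 and 3 with all 18 libraries in 1 fit. JUNB fell by 0.76.

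Growth factors and guidance cues also changed. Of 21 ligands tested of 25 listed 10 fell and 5 rose, with 2 higher without KO1 replicate 3. FGF5 rose from 99.2, 91.9 and 92.96 to 172, 164 and 172 CPM (log2 fold change 0.82). Of 18 receptors 7 fell, ERBB3 by 1.28, and 1 rose, which became 0 without WT replicate 3, KO1 replicate 2 or KO1 replicate 3. Of 19 semaphorins, plexins and other guidance genes 13 fell and 2 rose (median -0.39), with PLXNB1 lower by 1.29 and SEMA4B lower by 1.05. NOTCH3 fell from 4.16, 4.11 and 3.81 to 0.920, 1.05 and 0.773 CPM (log2 fold change -2.15, SE 0.15, adjusted p 1.53e-08) and the Notch ligand DLL4 rose by 0.81. In the Notch group 4 of 12 fell and 1 rose. Of 11 retinoid genes tested of 20 listed 6 fell and none rose, with DHRS3 first. Of 25 channel and calcium genes tested of 30 listed 10 fell and 6 rose, and the calcium pump ATP2A3 fell by 1.44.

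p53 targets and apoptosis genes showed no single direction. Of 21 p53 targets 6 rose and 7 fell, GDF15, a secreted stress cytokine, by 1.06 downward and AEN, a nuclease, by 0.57 upward. Of 19 BCL2 family and caspase genes 3 rose (5 when all genes with at least 1 count were tested) and 6 fell, BMF, a death-promoting member, by 0.96 downward and BCL2 by 0.46 upward.

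By class of gene, 542 of 12685 protein-coding genes were called higher (4.27%) and 1274 lower (10%), and 94 (5.98%) and 119 (7.57%) of 1572 long noncoding RNAs. Small nuclear RNAs stood out by their count, with 11 of 23 higher (47.8%), none lower and a median of 0.91, and of 41 small nucleolar RNAs 8 were higher (19.5%). These genes have near-identical copies or lie within other genes, so their counts are uncertain. Medians by chromosome ran from -0.079 on chromosome 15 to 0.056 on chromosome 16, and the 31 mitochondrial genes had 0.291. In stretches of 10 Mb with at least 20 genes tested, medians lay between -0.317, in the first 10 Mb of chromosome 9, and 0.294, from 50 to 60 Mb of chromosome 6.

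The second knockout pool gives a comparison of KO1 with another line targeted at GPS2. KO2 was made in the same way with sgRNA set 2, and the comparison of KO1 with KO2 needs no WT library. Between the pools 408 genes (2.62% of the genes tested) differed by the same rule. Of the 2162 genes called in KO1 against WT, 173 differed from KO2 (8.0%), 129 of them higher and 44 lower in KO1. The number was 114 without KO1 replicate 1. Of the 173, 100 had fallen in KO1 and were lower still in KO2, and 34 had fallen in KO1 below both WT and KO2. A further 29 had risen in KO1 above both, and 10 had risen in KO1 and were higher still in KO2.

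Several inflammatory genes were lower in KO2 than in KO1. ICAM1 was at 42.2, 50.04 and 39.5 CPM in KO1 and 9.86, 8.49 and 10.4 CPM in KO2 (KO1 minus KO2 2.19, adjusted p 1.28e-11). IL1B was at 16.2, 20.5 and 13.2 CPM and 3.77, 4.94 and 4.68 CPM (difference 1.88), and CXCL8, the neutrophil chemokine, at 61.2, 79.2 and 58.4 CPM and 14.4, 12.7 and 14.9 CPM (difference 2.23). CXCL8 was at 98.8, 80.3 and 92.7 CPM in WT, and its fall in KO1 no longer passed the adjusted p of 0.001 without KO1 replicate 1 (adjusted p 0.0038), KO1 replicate 3 (0.00455) or WT replicate 3 (0.00286), with a replicate block (0.00118) or by DESeq2 (0.0095). CCL2 moved in opposite directions, to 29.6, 28.1 and 37.7 CPM in KO1 and 9.14, 6.66 and 6.91 CPM in KO2, with WT between them. RELB and BST2 were higher in KO1 than in KO2 by 1.20 and 1.15, and ADAM8 by 1.96.

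Genes of other roles were lower in KO1 than in KO2. TBX3, a T-box repressor, was at 2.58, 3.01 and 2.63 CPM in WT, 1.34, 1.51 and 1.91 CPM in KO1 and 10.1, 8.74 and 8.07 CPM in KO2 (KO1 minus KO2 -2.51, adjusted p 3.26e-10). Its fall in KO1 lost its call without KO1 replicate 1 (adjusted p 0.00378), KO1 replicate 2 (0.00246), WT replicate 2 (0.00249) or WT replicate 3 (0.0015). PIEZO2, a channel gated by touch, fell to 0.789, 0.755 and 0.883 CPM in KO1, while WT and KO2 were at 2.25, 3.18 and 2.77 and 2.57, 2.93 and 2.94 CPM. PTPRN2 and PALM, a phosphatase of secretory granules and a membrane protein, fell in KO1 too, with KO1 minus KO2 of -1.45 and -1.36.

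In the other direction, SPINT1 was at 0.815, 0.944 and 0.828 CPM in KO1 and 0.0857, 0.0257 and 0.109 CPM in KO2, with KO1 between WT and KO2 (difference 3.5, adjusted p 2.7e-06). PRDM9, the histone methyltransferase that places meiotic recombination, went from 5.71, 4.58 and 4.32 CPM in WT to 2.94, 3.05 and 2.93 CPM in KO1 and 0.314, 0.206 and 0.0816 CPM in KO2. Its fall in KO1 had an adjusted p of 0.000144, which was 0.00122 without KO1 replicate 3 and 0.00208 with all 18 libraries in 1 fit. MT1A, a metallothionein, was at 0.920, 0.971 and 0.883 CPM in KO1 and 0.0571, 0.0257 and 0.0544 CPM in KO2 (difference 4.25), and its fall in KO1 had an adjusted p of 0.00107 without KO1 replicate 1 and 0.00118 without KO1 replicate 3. Of the 52 DNA replication genes 0 differed between the pools by the same rule, and of the 69 ribosome biogenesis genes 1 did, against 2.62% of all genes tested, and these small counts are near that share. CDC6 and UTP4 differed between the pools by 0.03 and 0.01 (adjusted p 0.543 and 0.922).

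**Figure D5:**
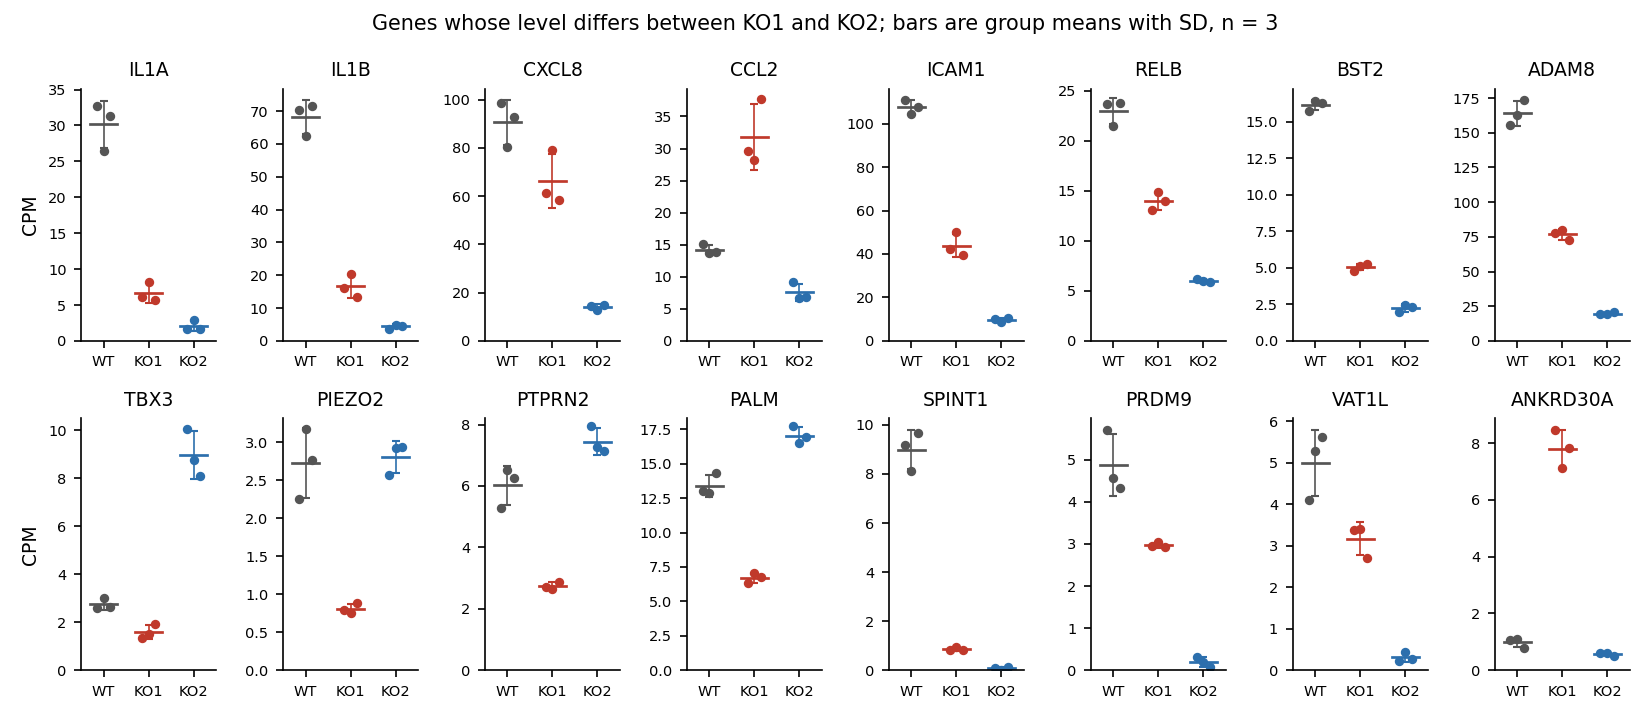
CPM (vertical axes, from 0) in the WT, KO1 and KO2 libraries for 16 genes, with 1 point per library, the group mean as a bar and the SD as a whisker (n = 3). IL1A, IL1B, ICAM1, RELB, BST2 and ADAM8 step down from WT through KO1 to KO2, CCL2 and ANKRD30A are highest in KO1, and PIEZO2, PTPRN2 and PALM are lowest in KO1.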

How the data were processed

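RNA was measured by total RNA sequencing after removal of ribosomal RNA in 18 MDA-MB-231 libraries, of which 3 KO1, 3 WT and, for 1 comparison, 3 KO2 libraries were compared. The table the authors deposited holds raw counts per gene. Per the submitters' processing notes, FastQC, Trim Galore, HISAT2, featureCounts and MultiQC were used with hg38. Versions, the strand setting and the rule for overlapping genes are not given in the sources used here. No column was left unmapped. GENCODE 44 gave a symbol to 41445 and a position to 56948 gene identifiers, and 15061 of 57448 genes had no counts.

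The 15587 genes that reached 1 CPM in 3 or more libraries, which hold 99.72% of counts, were fitted with the quasi-likelihood test of edgeR 4.0.16 in R 4.3.3 (TMM scaling, Benjamini-Hochberg adjustment over all genes tested). KO1 and WT had a fit of their own, and so had KO1 and KO2. Fold changes used edgeR's default prior count, and the log2 CPM behind the correlations of replicates used a prior count of 2. Calls needed an adjusted p no higher than 0.001 and a 1.5-fold difference. The code was tested on simulated data. Ratios of counts were scaled to effective (TMM) library sizes, and their intervals are exact at 95% and cover counting error only. Replicates were compared before averaging, and none was a duplicate. Depth, 33725461 to 39319910 counted reads, limits genes of few reads.

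The members, gene lists and tests were chosen with earlier results of these data known. Genes were named by a fixed rule. The rule took GPS2 and the 12 largest rises and falls among called genes with a symbol and at least 100 normalized counts. For these rises and falls the WT and KO1 libraries had to be without overlap, so their separation is a condition and no result. The rule also took up to 2 rises and 2 falls for each role of each list. The 12 checked genes and the 5 largest differences from KO2 each way completed the rule. CSAG1, GABRE, CETN2, CST1, CST3, CST7, TLR2 and the members named only as markers were added after their values were seen. Promoters came from RefSeq (GRCh38.p14). Alternatives changed the scaling, the filter, the test (DESeq2 1.42.0), the thresholds, the samples and a replicate block. The same-numbered KO1 and WT libraries had correlations of 0.0625, -0.0881 and 0.0946 of their deviations. Some genes are not reported here.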

Additional observations from a re-analysis of the deposited data

Results flagged for a closer look

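For 37 genes named by the fixed rule that passed the adjusted p of 0.001 against WT, the level in KO1 differed from that in KO2. The test was that of the difference itself, KO1 against KO2 in edgeR's quasi-likelihood test. All values are log2 differences, KO1 minus KO2. CSAG1 and TLR2, chosen after their values were seen, are not counted and differed by 4.845 (adjusted p 4.67e-08) and 3.165 (adjusted p 1.74e-07). No explanation was weighed.

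KO1 was the lower pool for 12 genes. The differences were -2.51 for TBX3, -1.81 for MAGEA3, -1.81 for PIEZO2, -1.49 for F13A1, -1.45 for PTPRN2 and -1.36 for PALM. They were -1.28 for ITGB4, -0.99 for COL6A3, -0.79 for PDK4, -0.74 for CST4, -0.73 for S100A4 and -0.69 for FGF5. MAGEA3, F13A1, S100A4 and FGF5 had risen in KO1 against WT, and the other 8 had fallen.

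KO1 was the higher pool for 25 genes. Among inflammatory genes and their regulators the differences were 1.69 for IL1A, 1.88 for IL1B, 2.06 for CCL2, 2.23 for CXCL8, 2.19 for ICAM1, 1.20 for RELB and 1.15 for BST2. Among secreted, matrix and protease genes they were 0.73 for PLAT, 0.90 for ITGB3, 0.91 for LTBP3, 1.04 for GDF15, 1.13 for MMP3, 1.53 for CTSF, 1.96 for ADAM8 and 3.5 for SPINT1. The regulators CCND2 and ELF3 differed by 0.84 and 1.34. The remaining values were 1.45 for LINC02582, 2.07 for MAGEA6, 2.17 for GABRA3, 3.3 for VAT1L, 3.74 for ANKRD30A, 3.87 for PRDM9, 4.25 for MT1A and 4.90 for MAGEA12. The fall of VAT1L in KO1 against WT no longer passed the adjusted p of 0.001 without any 1 of 5 libraries, all but WT replicate 1 (0.00146 to 0.0056), or with a replicate block (0.00132).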

How the results depend on the processing

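Against 715 genes higher and 1447 lower, other scalings, filters and tests stayed within 1.5 times. Without a minimum fold the counts were 3191 and 3315, at a minimum of 2-fold 155 and 571, and with a test against the 1.5-fold limit (glmTreat) 162 and 425, since each changes the threshold itself. Leaving out 1 library gave 601 to 785 higher and 1165 to 1421 lower, and 114 to 170 genes that also differed from KO2 (173 with all), lowest without KO1 replicate 1. With the replicate block, 694 were higher, 1389 lower and 186 differed from KO2. The numbers do not pair the samples, since not every same-number correlation (0.0625, -0.0881 and 0.0946) was above 0.1 and not every library correlated best with its own number. Of 247 named genes, 209 kept direction and side of the threshold in all alternatives and 38 did not. CD44, which did not pass, reversed to -0.015 with upper-quartile scaling, -0.019 with library totals and -0.013 without WT replicate 1 (range 0.038 to -0.013 over libraries left out), and GPS2 to 0.025 without WT replicate 2 (range -0.065 to 0.025). The cause was not tested. Genes with few reads, such as HLA-DRA, are limited by depth.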
